A study of Mus musculus with 4 samples.

Results

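The 10 genes described here are the receptors, ligands, nuclear effector and targets of Notch signalling: Notch1, Notch2, Notch3, Dll1, Dll4, Jag1, Rbpj, Hes1, Hey1 and Heyl. They were taken by gene symbol from the 24054 symbols of the count table, and all 10 were found and passed the filter on low counts that left 13652 genes for testing. The samples were 4 soleus RNA libraries, from a slow hindlimb muscle of female *mdx* mice (C57BL/10ScSn background), whose dystrophin gene is mutated. Infusions into the femoral vein began at 8 weeks of age and were given monthly until the 12-month endpoint. The treated group (2 libraries, mCDC 1 and mCDC 2) was given mouse cardiosphere-derived cells, stromal cells at passage 5 that had been grown from the heart of a single wild-type mouse, and the control group (2 libraries, vehicle 1 and vehicle 2) was given the culture medium alone. Both groups carried the dystrophin mutation, and no non-dystrophic muscle was analysed here, so the comparison is of mCDC with vehicle among dystrophic muscles.

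Notch signalling passes between touching cells. A Delta-like or Jagged ligand on one cell binds a Notch receptor on its neighbour, the receptor is cut within the membrane, and its released inner part enters the nucleus, joins the DNA-binding protein RBPJ and turns on repressors of the Hes and Hey families. In skeletal muscle, Notch activity keeps satellite cells, the stem cells of the fibres, quiescent and holds back MyoD-driven differentiation. In blood vessels, Notch1, Notch4 and Dll4 act in endothelium, and Notch3 with its target Heyl in the mural cells around it.

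Reference sequence before the transcription start was examined for the letters TGGGAA, the core that RBPJ binds, and CACNAG, the N box that Hes repressors bind, on either strand. RefSeq promoters (GRCm38.p6) were at hand for 7 of the 10 members, with 9 start sites, and Hes1, Hey1 and Heyl were not searched. The RBPJ core lay within 250 bases before 2 of these starts, both of Rbpj itself and overlapping in sequence, and in 21.6% of all 32851 promoters. The N box lay before 4 starts, those of Notch1, Notch2, Notch3 and Dll4, and in 36.7% of all promoters, and none of the 9 windows held both motifs. The windows of 3 members are shown, each of 250 bases up to the start and all on the plus strand: Notch2, whose libraries did not overlap between groups, Dll4, whose fitted difference was the largest of the 10, and Rbpj, the one of the 7 with the RBPJ core. Capitals mark the RBPJ core or the N box. The windows are chr3:98013288-98013537 for Notch2, chr2:119325534-119325783 for Dll4 and chr5:53590096-53590345 for Rbpj. For Notch2 and Rbpj these RefSeq starts differ from the starts of the gene spans given below, which are from GENCODE. The Rbpj window lies inside its gene span, and other GENCODE starts were not searched.
Notch2: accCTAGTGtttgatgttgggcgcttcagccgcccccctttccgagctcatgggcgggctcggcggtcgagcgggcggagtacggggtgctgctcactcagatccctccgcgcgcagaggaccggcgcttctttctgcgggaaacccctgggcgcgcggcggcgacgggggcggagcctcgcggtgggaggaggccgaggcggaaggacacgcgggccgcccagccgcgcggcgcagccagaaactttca
Dll4: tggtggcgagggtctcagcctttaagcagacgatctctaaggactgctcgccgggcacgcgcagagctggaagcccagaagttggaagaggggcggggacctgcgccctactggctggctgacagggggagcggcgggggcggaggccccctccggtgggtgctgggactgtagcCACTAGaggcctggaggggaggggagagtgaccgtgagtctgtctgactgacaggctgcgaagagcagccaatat
Rbpj: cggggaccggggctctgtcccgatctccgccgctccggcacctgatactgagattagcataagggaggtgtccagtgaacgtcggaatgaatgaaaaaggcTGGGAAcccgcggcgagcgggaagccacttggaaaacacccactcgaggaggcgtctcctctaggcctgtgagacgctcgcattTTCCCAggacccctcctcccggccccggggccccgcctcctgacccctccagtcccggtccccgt
The N box of Notch2 began at position -247 from the start and read CTAGTG, on the opposite strand, and that of Dll4 began at -75 and read CACTAG. The RBPJ cores of Rbpj began at -149 and -65 and pointed in opposite directions. A match describes these letters only.

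The expected counts, RSEM's estimate of reads per gene, summed to between 22481391 and 27187425 per library. Levels are given as reads of a gene as a share of its library (CPM), after TMM scaling, which evens out composition between libraries. Vehicle 2 and mCDC 2 lay at the opposite ends of the first principal component of log2 CPM, at -29.9 and 33.1, with the other two libraries at -6.08 and 2.88. Markers of slow fibres were abundant in all 4 libraries, with Myh7, the slow myosin heavy chain, between 38237 and 47467 CPM. In such bulk RNA, fewer cells of a type and less RNA per cell cannot be told apart.

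Of the 10 Notch members, 0 met the study's criteria for a called gene, which are more than 1.5-fold difference together with unadjusted p under 0.05. With edgeR's quasi-likelihood test 1 member, Notch2, had an unadjusted p under 0.05. DESeq2, edgeR's exact test and its likelihood ratio test each called 1 member, Dll4, as lower. Among all genes tested, 1.26% were called higher with mCDCs and 2.74% lower. The fitted log2 fold change was below 0 for 7 members and above 0 for 3, with a median of -0.24 against -0.0094 over all genes tested. Adjusted p over all genes lay between 0.714 and 0.997 for the members (edgeR, Benjamini-Hochberg). The smallest adjusted p of any gene tested was 0.200 by the same test. Both mCDC libraries lay below both vehicle libraries for 2 members and above them for 0, against 19.4% and 19.2% of all genes tested. An exact two-sided permutation test on 1 gene with these 4 libraries has 0.333 as its smallest p.

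**Figure D1:**
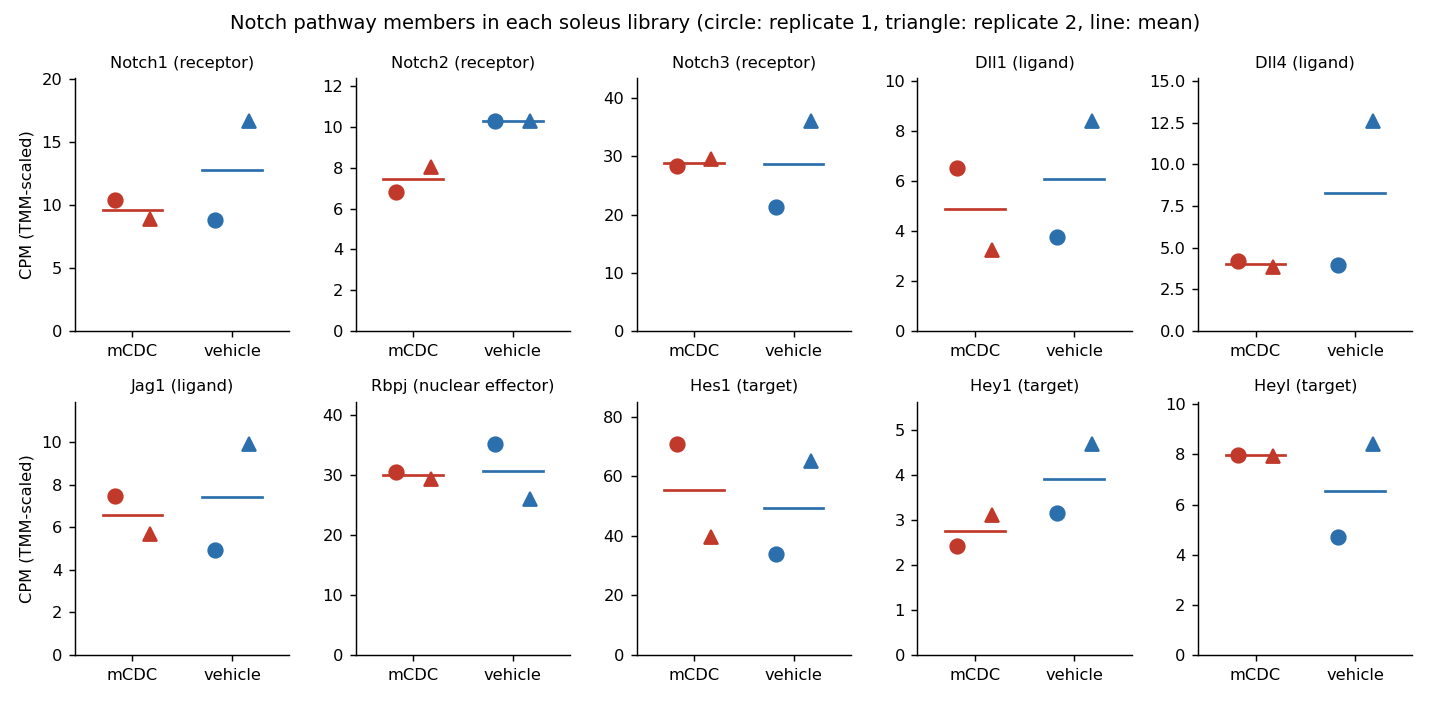
TMM-scaled CPM of each member (vertical axes, starting at 0) in the 2 mCDC (red) and 2 vehicle (blue) libraries, with circles for replicate 1, triangles for replicate 2 and lines for group means. Vehicle 2 was the highest library for 7 of the 10 members, and the groups did not overlap for Notch2 and Hey1.

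Of the 3 receptors among the members, Notch2 was the one whose groups did not overlap. Notch2 (chr3:98013527-98150361, mm10, plus strand) had 6.82 and 8.04 CPM in mCDC 1 and 2 and 10.3 CPM in each vehicle library. Both mCDC libraries lay below both vehicle libraries, and the difference between group means exceeded that between the libraries of either group, which was so for no other member. The fitted log2 fold change of mCDC over vehicle was -0.47 (standard error 0.19, unadjusted p = 0.0396, adjusted p = 0.714 by edgeR's quasi-likelihood test), which is 1.39-fold lower and short of 1.5-fold. With each library left out it lay between -0.59 and -0.36, and the unadjusted p lay between 0.0656 and 0.250 (edgeR). With each library's trend on transcript length and GC content removed it was -0.30 (unadjusted p = 0.148, edgeR), and with DESeq2 the unadjusted p was 0.0892.

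Notch1 (chr2:26457903-26516663, minus strand), a receptor of endothelium and satellite cells, had 10.4 CPM in mCDC 1, 8.86 in mCDC 2, 8.85 in vehicle 1 and 16.7 in vehicle 2. Only vehicle 2 stood well above the rest, and the groups overlapped. The log2 fold change was -0.41 (standard error 0.29, adjusted p = 0.776, edgeR). Without vehicle 2 it was 0.12, and without vehicle 1 it was -0.79 and past both thresholds (unadjusted p = 0.00708, edgeR). Notch3 (chr17:32120820-32166852, minus strand), the receptor of mural cells, had 28.4 CPM in mCDC 1, 29.5 in mCDC 2, 21.3 in vehicle 1 and 36.2 in vehicle 2. The vehicle libraries lay on either side of the mCDC libraries, and the fitted difference was 0.01 (standard error 0.24, adjusted p = 0.997, edgeR). Without vehicle 2 it was 0.44 (unadjusted p = 0.0342, edgeR), under 1.5-fold.

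All 3 ligands among the members were highest in vehicle 2. Dll4 (chr2:119325784-119335962, plus strand), the ligand of arterial and sprouting endothelium, had 4.23 CPM in mCDC 1, 3.88 in mCDC 2, 3.96 in vehicle 1 and 12.6 in vehicle 2. The latter value rests on 347 expected counts, with an exact Poisson interval of 11.3 to 14.0 CPM (95%, counting error only), and the other libraries had between 84.8 and 112 counts. The log2 fold change of Dll4 was -1.03 (standard error 0.47, unadjusted p = 0.0597, adjusted p = 0.724, edgeR's quasi-likelihood test). Without vehicle 2 it was 0.034, and without vehicle 1 it was -1.63 (unadjusted p = 0.000235, adjusted p = 0.198, edgeR), past both thresholds. Without mCDC 1 it was -1.10 and also past them (unadjusted p = 0.0458, edgeR). Dll4 was also called lower with DESeq2 (unadjusted p = 0.0197, adjusted p = 0.928), with edgeR's exact test (unadjusted p = 0.0359) and with its likelihood ratio test (unadjusted p = 0.0326).

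Dll1 (chr17:15367354-15376872, minus strand), a ligand on myogenic cells, had 6.51 CPM in mCDC 1, 3.24 in mCDC 2, 3.78 in vehicle 1 and 8.40 in vehicle 2. The libraries were 2.01-fold apart within the mCDC group and 2.22-fold apart within the vehicle group, and the groups overlapped. The fitted log2 difference was -0.31 (standard error 0.43, adjusted p = 0.871, edgeR). Jag1 (chr2:137081456-137116644, minus strand), a ligand of vessel walls and other tissues, had 7.46 CPM in mCDC 1, 5.66 in mCDC 2, 4.92 in vehicle 1 and 9.90 in vehicle 2. As for Notch3, the vehicle libraries enclosed the mCDC libraries, and the fitted difference was -0.17 (standard error 0.33, adjusted p = 0.915, edgeR). Without vehicle 2 the values of Dll1 and Jag1 were 0.38 and 0.42. Exons of Dll1, Dll4, Notch1 and Notch3 overlap transcripts annotated on the other strand, and whether counting used strand is not given, so reads of the partners may be among their counts. An exon of Notch2 overlaps a transcript annotated on the same strand.

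Rbpj (chr5:53466152-53657362, plus strand), the DNA-binding partner through which all the receptors act, had the smallest standard error of the members. It had 30.5 CPM in mCDC 1, 29.4 in mCDC 2, 35.1 in vehicle 1 and 26.1 in vehicle 2. It was the only member with its lowest value in vehicle 2. For Rbpj the log2 fold change was -0.03 (standard error 0.18, adjusted p = 0.977, edgeR). It was 0.16 once the trend on length and GC content was taken out.

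Of the 3 targets, 0 were called. Hes1 (chr16:30064384-30067796, plus strand), a repressor that many signals besides Notch induce, had 70.7 CPM in mCDC 1, 39.7 in mCDC 2, 33.8 in vehicle 1 and 65.1 in vehicle 2. A high and a low library stood in each group, 1.78-fold apart in mCDC and 1.93-fold apart in vehicle muscles, and the log2 fold change was 0.16 (standard error 0.34, adjusted p = 0.925, edgeR). With 1 library left out it lay between -0.32, without mCDC 1, and 0.71, without vehicle 2. Notch1, Dll1, Dll4, Jag1 and Heyl also had their 2 highest values in mCDC 1 and vehicle 2.

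Hey1 (chr3:8663359-8667256, minus strand), a target in endothelium and satellite cells, had 2.42 CPM in mCDC 1, 3.11 in mCDC 2, 3.17 in vehicle 1 and 4.69 in vehicle 2. Both mCDC libraries were below both vehicle libraries, but mCDC 2 and vehicle 1 could not be told apart by count, with exact Poisson intervals of 2.41 to 3.94 and 2.52 to 3.93 CPM. For Hey1 the log2 fold change was -0.51 (standard error 0.30, unadjusted p = 0.120, adjusted p = 0.747, edgeR), and without vehicle 1 it was -0.76 and past both thresholds (unadjusted p = 0.0353, edgeR). Without vehicle 2 it was -0.20 (unadjusted p = 0.528, edgeR). Heyl (chr4:123233556-123249875, plus strand), a target in mural and satellite cells, had 7.99 CPM in mCDC 1, 7.95 in mCDC 2, 4.69 in vehicle 1 and 8.40 in vehicle 2. Only vehicle 1 stood apart. For Heyl the log2 fold change was 0.28 (standard error 0.28, adjusted p = 0.828, edgeR), and without vehicle 2 it was 0.76 and past both thresholds (unadjusted p = 0.0144, edgeR).

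**Figure D2:**
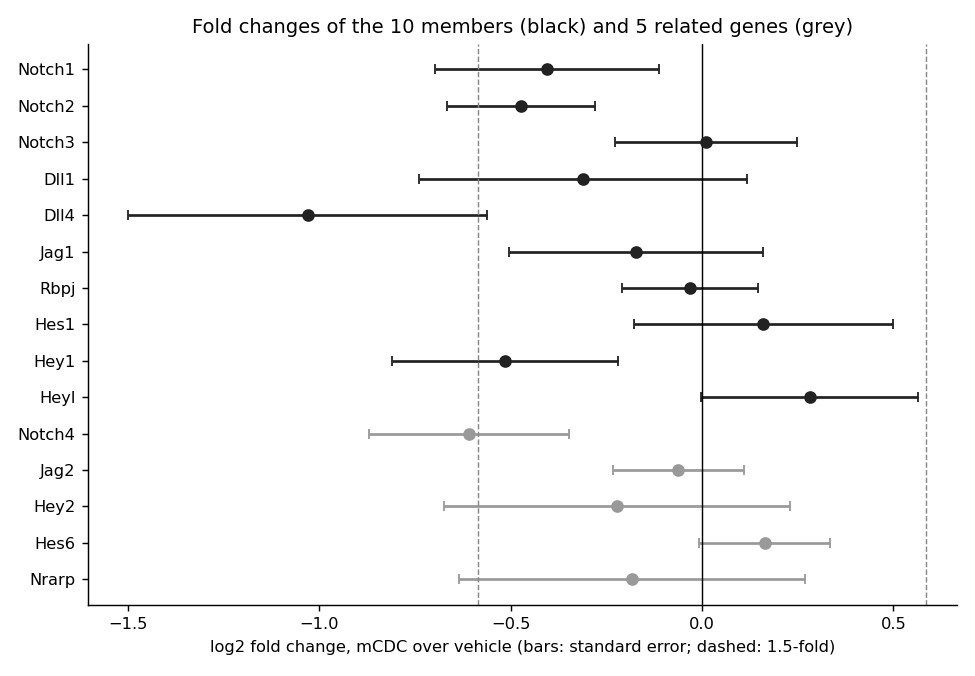
Log2 fold change of mCDC over vehicle (horizontal axis, bars are standard errors from the edgeR fit) for the 10 members in black and Notch4, Jag2, Hey2, Hes6 and Nrarp in grey, with dashed lines at 1.5-fold. Dll4 lay farthest from 0, at -1.03, and Notch4 was the only gene shown that was called.

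The vehicle libraries were far apart for most members. The absolute log2 difference between the 2 vehicle libraries had a median of 0.88 over the members and 0.24 over all genes tested, while that between the 2 mCDC libraries was 0.24 and 0.19. For 9 of the 10 members, all but Notch2, the vehicle libraries differed from each other by more than the group means did, as was so for 59.3% of all genes tested. Relative to vehicle 1, vehicle 2 was 3.19-fold higher for Dll4, 2.22-fold for Dll1, 2.01-fold for Jag1, 1.93-fold for Hes1 and 1.89-fold for Notch1. Vehicle 2 was the highest library for 7 members, and for 29.4% of all genes tested.

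**Figure D3:**
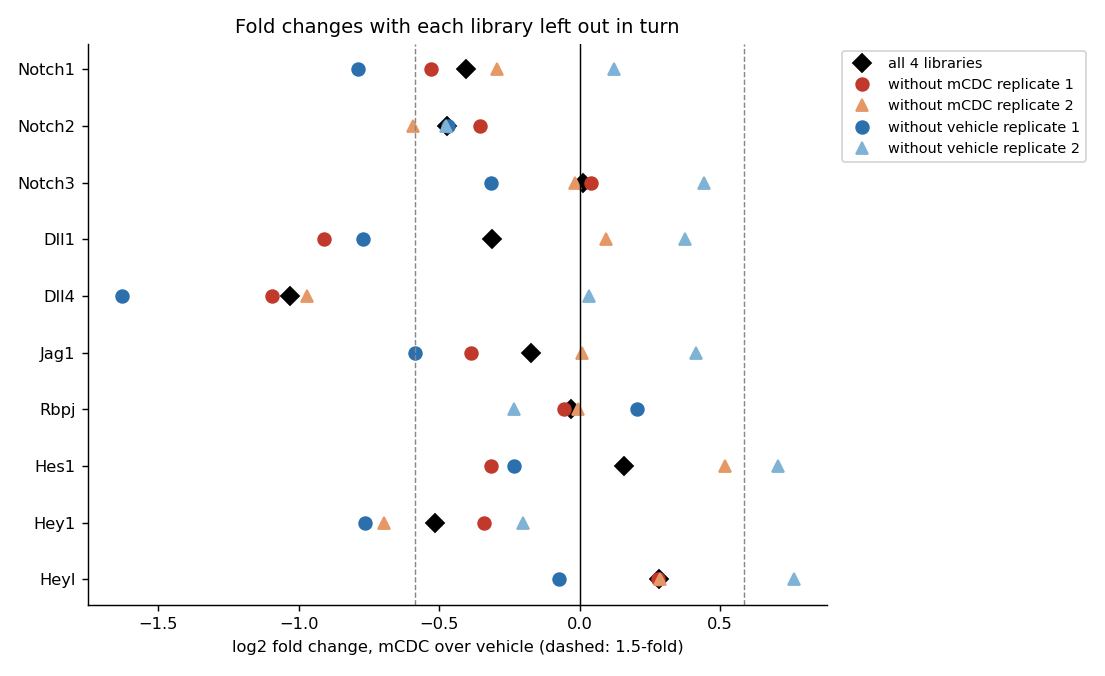
Log2 fold change of each member (horizontal axis) with all 4 libraries (diamonds) and with each library left out, with dashed lines at 1.5-fold. For 8 of the 10 members some omission put the value on the other side of 0; Notch2 and Hey1 stayed below 0.

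Endothelial markers, like 7 of the members, were highest in vehicle 2. The endothelial list (Pecam1, Cdh5, Kdr, Tek, Tie1, Emcn, Erg, Esam, Cldn5 and Vwf) summed to 159 and 127 CPM in mCDC 1 and 2 and to 135 and 291 CPM in vehicle 1 and 2, and all 10 of its genes had their highest value in vehicle 2. Pecam1, an adhesion protein of endothelium, had a log2 fold change of -0.67 and Cdh5, its junctional cadherin, one of -0.59. Of the 10, 1 was called lower by edgeR, Vwf at -0.90 (unadjusted p = 0.00819, adjusted p = 0.619), and 2 by DESeq2. The arterial list summed to between 18.8 and 24.1 CPM in 3 libraries and to 36.2 CPM in vehicle 2, with Gja5 at -0.03, Gja4 at -0.22 and Sox17 called lower at -0.95. The mural list summed to 354 and 371 CPM in mCDC and 325 and 359 CPM in vehicle muscles, with Pdgfrb at -0.04, Rgs5 called lower at -0.60 and Cspg4 higher at 0.63, and 5 of its 8 genes were highest in vehicle 2. The part of these cell markers in the values of the members was not tested.

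**Figure D4:**
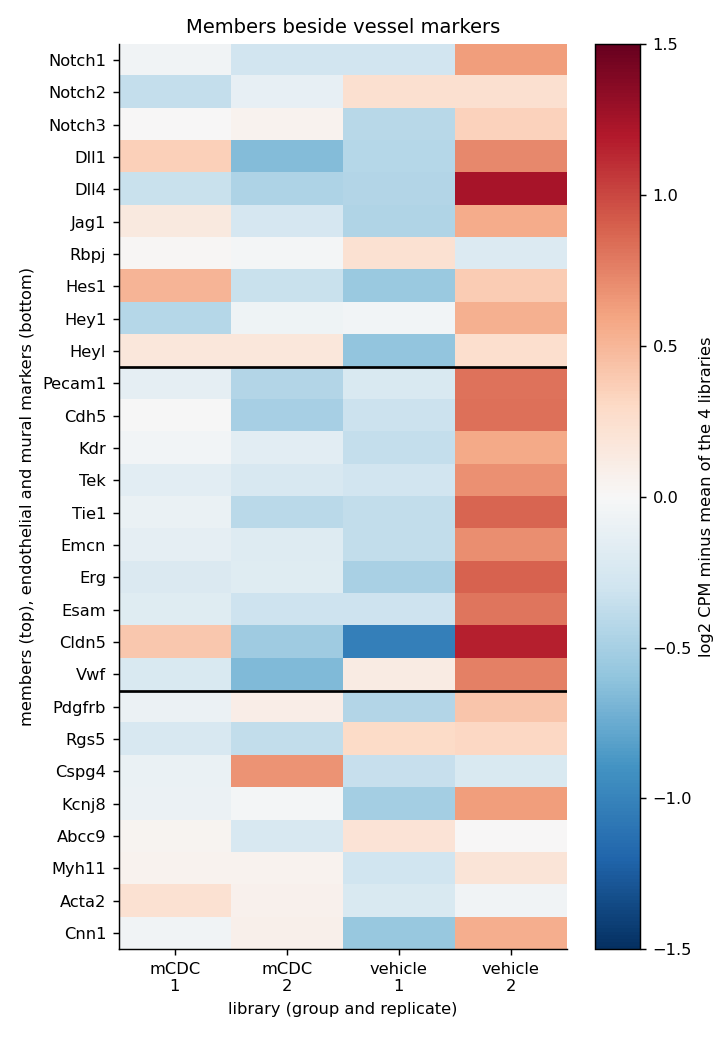
Log2 CPM minus the gene's mean over the 4 libraries (color, red above and blue below) for the members, 10 endothelial and 8 mural markers (rows) in each library (columns). Notch1, Dll1, Dll4 and Jag1 were highest in vehicle 2, as were all 10 endothelial markers, and Rbpj was lowest there.

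The same members were then set against the endothelial sum, a scaling chosen after these values were seen and given with no test. Dll4 had 2.66 and 3.05 CPM per 100 CPM of endothelial markers in mCDC 1 and 2, 2.94 in vehicle 1 and 4.34 in vehicle 2, so vehicle 2 was still the highest. Notch1 had 6.53 and 6.97 in the mCDC libraries and 6.57 and 5.75 in vehicle 1 and 2, and vehicle 2 was then the lowest. Jag1 had 4.68 and 4.46 against 3.65 and 3.41, and both mCDC libraries were above both vehicle libraries. Notch2 had 4.28, 6.32, 7.65 and 3.54 in mCDC 1, mCDC 2, vehicle 1 and vehicle 2, so its groups overlapped on this scale. Hey1 had 1.52, 2.44, 2.35 and 1.61 in the same order, and its groups overlapped too. Relative to the mural sum, Notch3 had 8.02 and 7.96 CPM per 100 in the mCDC libraries and 6.56 and 10.1 in vehicle 1 and 2, and Heyl had 2.26, 2.14, 1.45 and 2.34.

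Levels of different genes can be compared only per length. Per kb of the longest coding transcript in GENCODE, Hes1 had the highest level of the members, 35.6 ± 12.5 CPM per kb (SD over all 4 libraries), and its lowest library lay above the highest of any other member. Rbpj followed with 5.52 ± 0.68, and Notch3, with 3.60 ± 0.76, did not overlap with it. The other seven members had means between 0.844 for Notch2 and 1.65 for Dll4, and each overlapped over the 4 libraries with the next in order. Per kb of the median transcript, Notch3 was at 6.61 ± 1.39 and overlapped with Rbpj at 5.66 ± 0.70, and Notch1 was at 2.24, as GENCODE lists a coding transcript of 512 bases for Notch1 beside the longest of 9488. Per kb of the shortest coding transcript, Rbpj at 44.1 ± 5.5 and Notch3 at 40.2 ± 8.5 had higher means than Hes1 and overlapped with it.

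**Figure D5:**
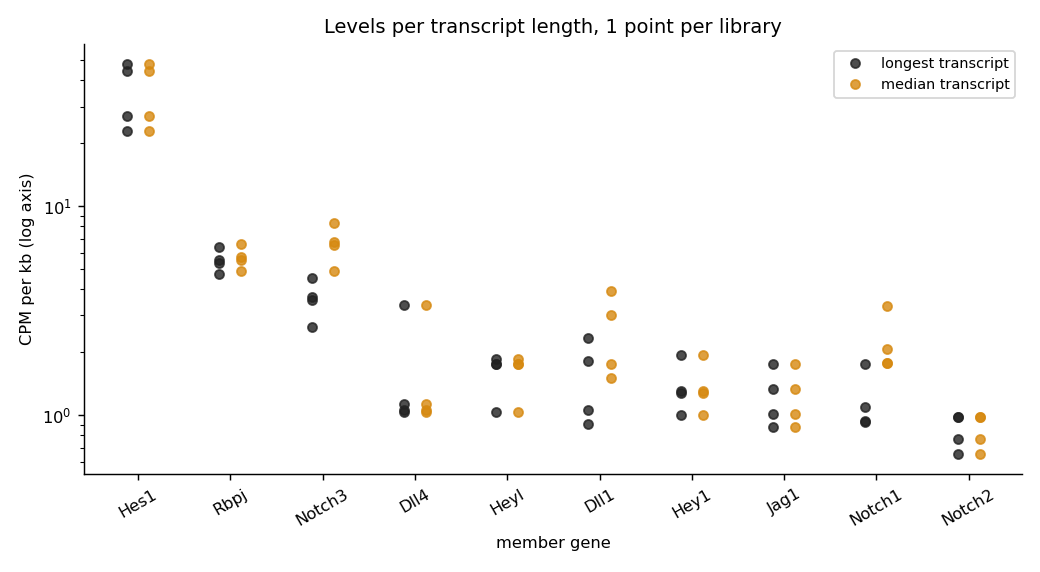
CPM per kb (vertical log axis) of each member in each library, divided by the longest (black) or the median (orange) coding transcript of the gene. Hes1 lay highest, at 35.6 on average, and Notch2 lowest, at 0.844, with either length.

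Among the 4 receptors, Notch4 included, Notch3 made up the largest share per length in every library. With the median transcript its share was 60.9% and 61.6% in mCDC muscles and 52.0% and 53.1% in vehicle muscles, and with the longest transcript it was 52.7%, 52.2%, 42.0% and 44.1%. The share of Notch4, an endothelial receptor that is not a member, was 21.4% and 23.8% in mCDC and 27.7% and 29.2% in vehicle muscles with the longest transcript. These shares did not overlap between groups, a comparison chosen after the values were seen and not tested. Among the ligands Jag2, which is not a member, held between 61.9% and 77.8% per length of the longest transcript, more than Dll1, Dll4 and Jag1 together.

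Outside the 10 members, 52 other genes of the pathway were listed, of which 47 were tested, and 3 were called lower and 0 higher by edgeR's quasi-likelihood test. The 3 were Notch4, Col6a1 and Col6a2, or 6.38% of those tested, against 2.74% of all genes, and 0 of the 47 was higher with an unadjusted p under 0.05 or with DESeq2, by which 2 were lower. Notch4 had 9.47 CPM in mCDC 1, 11.1 in mCDC 2, 11.6 in vehicle 1 and 19.7 in vehicle 2. Its log2 fold change was -0.61 (standard error 0.26, unadjusted p = 0.0487, adjusted p = 0.714, edgeR), and it was not called without vehicle 2, at -0.17, or without mCDC 1, at -0.50 (unadjusted p = 0.137, edgeR). Relative to the endothelial sum Notch4 had 5.94, 8.70, 8.58 and 6.77 CPM per 100 in the same order of libraries, and the groups overlapped. Col6a1 and Col6a2, collagen VI chains listed as Notch targets in satellite cells and also made by fibroblasts, were at -0.62 and -0.59, and not called without vehicle 2, at -0.19 and -0.18, or without mCDC 2, at -0.48 and -0.49. With DESeq2 Col6a2 was at -0.57, and with other size factors at -0.58, both under 1.5-fold, and with no filter on low counts Notch4 had an unadjusted p of 0.0561 (edgeR). The fibroblast list of Pdgfra, Dcn, Dpt, Pi16, Ly6a and Col1a1 summed to 267 and 239 CPM in mCDC and 243 and 427 CPM in the vehicle libraries, with all 6 genes highest in vehicle 2, and its part in these values was not tested. Once the trend on length and GC content was taken out, 0 of the pathway genes were called lower, with Col6a1 at -0.54 (unadjusted p = 0.0426, edgeR) and Col6a2 at -0.50 (unadjusted p = 0.0416, edgeR) under 1.5-fold and Notch4 at -0.48 (unadjusted p = 0.0726, edgeR). With vehicle 1 left out, Notch4 was at -0.94, Col6a1 at -0.95 and Col6a2 at -0.90.

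The remaining pathway genes were not called or lay too low to test. Jag2, a Jagged ligand, had a log2 fold change of -0.06, Hes6, which is raised in differentiating myoblasts, one of 0.16, and Hey2, at between 0.837 and 1.87 CPM, one of -0.22. Nrarp, a feedback inhibitor that Notch induces, had 7.92 CPM in mCDC 1, 7.40 in mCDC 2, 4.08 in vehicle 1 and 13.3 in vehicle 2, with a log2 fold change of -0.18. Without vehicle 2 Nrarp was at 0.91, and without vehicle 1 it was at -0.79. Relative to the endothelial sum Nrarp had 4.96 and 5.82 CPM per 100 in mCDC 1 and 2 and 3.03 and 4.57 in vehicle 1 and 2. Both mCDC libraries were above both vehicle libraries on this scale, which was chosen after the values were seen and not tested. Dll3 had 0 counts in every library and Hes5 between 0 and 3. The 10 genes of receptor cleavage, had a median log2 fold change of -0.030, the 10 nuclear cofactors -0.21, the 5 glycosylation genes -0.088 and the 13 ubiquitin ligase and trafficking genes -0.10, and none of these 38 was called by edgeR or DESeq2 with all libraries. With a library left out edgeR called 6 of them lower, all named here for that reason: Lfng, Mfng and Neurl1b without vehicle 1, Maml3 and Mib1 without vehicle 2, and Dtx3l without mCDC 1.

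Of the lists for other cells, the satellite cell markers summed to 74.3 and 63.7 CPM in mCDC and 62.3 and 65.2 CPM in vehicle muscles. Pax7 was called higher at 0.76 (adjusted p = 0.700, edgeR). Calcr, the calcitonin receptor of quiescent satellite cells, had between 5 and 12 counts. DESeq2 called 0 of the satellite cell markers, and of the 5 tested by edgeR 3 were above 0 and 2 below, with a median of 0.034. The myoblast list summed to 91.1 and 98.4 CPM in mCDC 1 and 2, against 45.2 and 58.5 CPM in vehicle 1 and 2. Myod1 and Myog were called higher at 0.84 and 1.07 (adjusted p = 0.635 and 0.612, edgeR). Myod1 had 50.4 and 30.5 CPM in mCDC 1 and 2 and 19.1 and 26.0 CPM in vehicle 1 and 2. Myog had 32.6, 63.3, 21.3 and 24.4 CPM in the same order, so a different mCDC library was highest for each gene. Tmem8c was at 0.08 and Gm7325 at -0.55, neither of them called. In the fibroblast list Pdgfra was called lower at -0.74 and Dcn was at -0.54. Of 5 macrophage markers Cd68 was called higher at 1.49 and Csf1r lower at -0.67, and Adgre1, listed as Emr1, had between 8 and 40 counts. Cd68 was at 15.4 CPM in mCDC 2 and between 2.71 and 4.15 CPM in the other libraries, the other 4 markers were below 0, and DESeq2 called none of the 5. None of 4 Schwann, 5 slow fibre and 5 fast fibre markers was called by edgeR or DESeq2 or had an unadjusted p under 0.05. The Schwann list summed to between 27.4 and 31.6 CPM in 3 libraries and to 46.1 CPM in vehicle 2, where all 4 of its genes were highest. For the Schwann gene Mbp the log2 fold change was -0.44, for the slow fibre genes Myh7 and Tnnt1, of a list with all 5 above 0 and a median of 0.21, it was 0.01 and 0.09, and for the fast fibre genes Myh2 and Myh1 -0.17 and -0.37. The other 3 fast fibre genes were above 0, with Tnnt3 and Tnni2 within 0.01 of it and Myh4 at 1.90, from 2096 CPM in mCDC 1 and between 47.5 and 411 CPM in the other libraries. Over all the marker lists, those of vessel cells included, 5 genes were called higher and 5 lower. Their adjusted p lay between 0.612 and 0.714 (edgeR's quasi-likelihood test, Benjamini-Hochberg). Among all genes tested, 1.26% were called higher and 2.74% lower. Leaving out a library changed the counts of called markers.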

How the data were processed

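Soleus RNA, 2 libraries per group, was sequenced from 1 end. The authors aligned to UCSC transcripts with Bowtie 2 (2.1.0 and build mm10 per the labels) and deposited RSEM (1.2.15) expected counts per gene, not normalized. The methods name a broad-range library kit and the labels a stranded mRNA kit.

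Expected counts were rounded and tested on the whole table with edgeR 4.0.16 in R 4.3.3: filterByExpr, TMM scaling and the quasi-likelihood F-test (legacy = FALSE), without a block. Calls used the study's criteria, more than 1.5-fold and unadjusted p under 0.05; the methods name no adjustment. Standard errors were obtained from the fold change and the F statistic. No source used here ties each library to its own mouse, so p-values measure the spread between libraries, which may be technical. The members and lists were chosen with earlier results of these data known. Named were all members, called pathway genes, Notch4, Jag2, Dll3, Hey2, Hes5, Hes6 and Nrarp, and of each cell list the called genes and its leading 2, of which 1 is not reported here; further genes (Tmem8c, Gm7325, Tnnt3, Tnni2, Myh4, Lfng, Mfng, Neurl1b, Maml3, Mib1 and Dtx3l) were added after their values were seen.

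Lengths, GC content and positions came from GENCODE M21 (mm10), with 99.14% of tested genes covered. Of the 31-base words of the members' coding transcripts, 20.1% (Rbpj, with a pseudogene), 18.2% (Dll1), 13.6% (Notch1), 6.62% (Notch3), 4.95% (Dll4) and 4.39% (Notch2) also occur in transcripts of other genes, and 0 of Jag1, Hes1, Hey1 and Heyl. The overlapping Gm14207, on the strand opposite Dll4, had between 4.16 and 12.2 counts; whether counting used strand is not given. Alternatives were DESeq2 1.42.0, edgeR's legacy, exact and likelihood ratio tests, other size factors and filters, a replicate block, correction for transcript length and GC, and omission of single libraries. The fit was tested on simulated data with known changes.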

Additional observations from a re-analysis of the deposited data

How the results depend on the processing

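Over the 9 alternatives that kept all 4 libraries, the sign of each member's log2 fold change held except that of Rbpj, which was 0.16 with the length and GC trend removed. Between 0 and 1 member was called lower in those settings, 1 each with DESeq2, the exact test and the likelihood ratio test, and 0 was higher. Leaving out a library gave 0 to 3 members lower and 0 to 1 higher. The ranges over these 4 omissions were -0.79 to 0.12 for Notch1, -0.32 to 0.44 for Notch3, -0.91 to 0.38 for Dll1, -1.63 to 0.034 for Dll4, -0.59 to 0.42 for Jag1, -0.23 to 0.20 for Rbpj, -0.32 to 0.71 for Hes1, -0.59 to -0.36 for Notch2, -0.76 to -0.20 for Hey1 and -0.0725 to 0.76 for Heyl. A group left with 1 library was assumed to vary like the other.

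With the replicate block, 0 other pathway genes were called lower instead of 3, with Notch4 at -0.56 (unadjusted p = 0.0302, edgeR), Col6a1 at -0.58 (unadjusted p = 0.0584) and Col6a2 at -0.55 (unadjusted p = 0.0522), all under 1.5-fold. With the length and GC trend removed it was also 0. No other result of the members changed its call under the block. The labels do not say whether a shared replicate number marks a pair. Replicate 1 minus 2 in mCDC and in vehicle muscles correlated at -0.0388 over genes, which cannot show whether the libraries were paired. Leaving out a library gave 1 to 8 other pathway genes lower and 0 to 1 higher, 237 to 834 genes lower and 112 to 396 higher over the whole table (374 and 172 with all libraries), and 2 to 22 marker genes lower and 2 to 3 higher. With the length and GC trend removed, 3 marker genes were lower. Relative to the vessel markers, chosen after seeing the data, the log2 ratios of group means of Notch1, Dll1, Jag1 and Notch3 changed sign, to 0.13, 0.22, 0.37 and -0.0575, and those of Dll4, Notch2 and Hey1 were -0.35, -0.078 and -0.00095. The cause of these changes was not tested. Counting error was largest for the members with the fewest reads, Hey1 with 64 to 129 per library and Dll1 with 71 to 231.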
